A study of Mus musculus with 56 samples.

Results

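The genes examined were the 2 ferritin chains *Fth1* and *Ftl1* and 8 genes of peroxide, superoxide and heme defense, *Prdx1*, *Prdx2*, *Prdx5*, *Sod1*, *Gpx1*, *Gpx4*, *Txn1* and *Hmox1*. They were listed by name, and each matched 1 row, so the group is 10 of the 47069 gene rows in the table. The data are single-cell (SC) libraries from primary cultures of whole pituitaries of randomly cycling C57BL/6 female mice, aged 10 to 12 weeks, with 5 pituitaries pooled per culture sample. The untreated cells had grown for 4 days and were then trypsinized and placed in RNA-Best, a reagent that stabilizes whole cells before an assay. Each of the 56 cells was lysed in its own chamber of a C1 integrated fluidic circuit, where its cDNA was made by SMART-Seq v4. Wells of the plate serve as the names of cells. The 46 wells with at least 100000 gene counts were used, and every value is from these unless another number is given. The labels name 1 kind of culture and no separate animals, so the wells are cells of 1 sample. No test was therefore made, and each correlation is a description of these wells.

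Ferritin is a shell of heavy and light chains that stores iron. The heavy chain, from *Fth1*, oxidizes iron so that it can be stored, and the light chain, from *Ftl1*, helps form the mineral core. In cells short of iron, iron regulatory proteins bind a hairpin in the 5′ untranslated region (UTR) of both mRNAs and hold back translation, so transcript and protein levels of ferritin can differ widely. The peroxiredoxins, thioredoxin and the glutathione peroxidases remove peroxides, SOD1 converts superoxide to peroxide, and heme oxygenase 1 splits heme and frees its iron.

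The hairpin, called the iron-responsive element, was searched for in the annotated 5′ UTRs, since it is the known shared feature of ferritin mRNAs. The pattern was an unpaired C, 5 paired bases, a loop of CAGTGN whose last base is not G, the 5 pairing bases, and at least 4 pairs among the next 6 bases on each side. It was present in the 5′ UTR of 6 of 20624 genes (0.0291%), and these were *Fth1*, *Ftl1*, the *Ftl1* copy *Ftl1-ps1*, the iron exporter gene *Slc40a1*, the heme synthesis gene *Alas2* and *Ppp1r1b*. Of the 10 members 2 had it. The elements are given below with the loop in capitals, 5′ to 3′ on the strand of the gene, from GENCODE M21 on GRCm38. *Fth1* lies at chr19:9982732-9982760 (plus strand), *Ftl1* at chr7:45459779-45459807 (minus strand) and *Slc40a1* at chr1:45925465-45925493 (minus strand).
Fth1: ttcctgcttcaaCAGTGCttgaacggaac
Ftl1: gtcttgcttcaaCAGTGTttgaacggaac
Slc40a1: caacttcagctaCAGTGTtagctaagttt
The ferritin elements had the same base at 26 of 29 positions, whereas each shared 13 of 29 with that of *Slc40a1*. *Tfrc*, the transferrin receptor gene, had 4 matches outside its 5′ UTR. A match is a description of the letters and not a measured binding site.

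The promoters were searched for the antioxidant response motif TGACNNNGC, to which NRF2 with a small MAF protein binds, on both strands from 250 bases before to 50 bases after the RefSeq start. Of the 9 members with a promoter in the RefSeq table (GRCm38.p6), 2 held the motif, *Prdx1* and *Sod1*. It occurs in a promoter of 14.0% of the 27025 genes there. The matches are shown with the motif in capitals, which in both reads on the opposite strand to the gene. That of *Prdx1* lies at chr4:116685456-116685485 and that of *Sod1* at chr16:90220696-90220725.
Prdx1: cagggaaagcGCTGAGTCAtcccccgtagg
Sod1: gccaaggtggGCGTGGTCAgactcaggcct
No match in the other promoters says only that these letters are not in this window.

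Gene counts in the wells used ranged from 111195 to 12563300, and 25 wells had at least 1000000. The hormone genes *Prl*, *Gh*, *Pomc*, *Cga*, *Lhb*, *Fshb* and *Tshb* took 0.923% to 81.0% of gene counts (median 29.6%), a share called the hormone load here. Synthetic ERCC spike-ins took 0.144% to 66.1% of all counts (median 6.08%). Of the markers of hormone cells, *Prl*, *Gh*, *Pomc* and the granin gene *Chga* had counts in all 46 wells, with *Chga* as low as 0.281 CPM. *Cga* and *Pou1f1* had counts in 45 wells, *Lhb* in 43, *Tshb* in 33 and *Fshb* in 2. No cell was named from these markers. Wells C10 and C11 share most of their profile. For 9 of the 10 members their levels were within 1.29-fold of each other. The level of *Prdx2* and the rho of *Fth1* with *Ftl1* are given below without each of them. Most other values are given with both only, and both were never left out together.

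Levels are in counts per 1000000 gene counts (CPM), with spike-ins left out. The ferritin genes had the highest medians of the members, and *Fth1* was among the steadiest genes of the culture. *Fth1*, on chr19:9980598-9985098, had a median of 1664 CPM, from 260 in C2 to 13476 in A2. *Ftl1*, on chr7:45457944-45459884, had a median of 1223 CPM, from 14.7 in E8 to 6816 in B12. Both were present in all 46 wells. The SD of log2(CPM + 1) over wells was 1.33 for *Fth1*, and 1.82% of the 2688 genes with a median of at least 10 CPM had a lower SD. Those genes had a median SD of 2.24. Among the 23 genes with a median within 2-fold of that of *Fth1*, whose SDs had a median of 1.60, 4 had a lower SD than *Fth1*. *Ftl1* had an SD of 1.62, close to the median of 1.64 for the 50 genes of a like level.

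Of the peroxide-removing enzymes, *Gpx4*, which clears lipid peroxides, had the highest median. It was at 552 CPM, with a range of 16.6 in A1 to 11463 in H5, and the next highest well was at 2724. *Gpx1*, the cytosolic glutathione peroxidase, had a median of 149 CPM and ranged from 0 in A10 to 4466 in G2. The 0 in A10, a shallow well, allows up to 23.5 CPM at a floor of 3 counts. *Prdx1*, a cytosolic peroxiredoxin, had a median of 450 CPM, from 35.4 in H3 to 6988 in A1. *Prdx2*, the related enzyme abundant in red cells, had a median of 205 CPM, from 0.844 in H9 to 5057 in C11. *Prdx5*, found in mitochondria and peroxisomes, was the least even member, with a median of 90.6 CPM, a range of 0 in A1 to 2028 in E3, and an upper quartile 16.2 times the lower. Its 0 in A1 allows up to 2.25 CPM. Each of these enzymes was over 10 times its median in 1 to 3 wells, and *Gpx1*, *Prdx2* and *Prdx5* were near 0 in others.

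*Txn1*, thioredoxin, which passes electrons to the peroxiredoxins, had a median of 322 CPM, from 1.49 in H4 to 5195 in H6. *Sod1* had a median of 120 CPM, from 1.52 in E8 to 2914 in E7. *Hmox1*, the inducible heme oxygenase, had a median of 94.6 CPM, from 0 in H4 to 5024 in D10, and D10 was 53.1 times the median. The second highest *Hmox1* level was 825 CPM in C8. The 10 highest levels lay in 10 different wells, so no well led for more than 1 member. For 8 of the 10 members, all but the ferritins, the highest well was more than 10 times the median. Peaks of this kind were not counted over all genes, so they are not shown to be particular to the members.

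**Figure D1:**
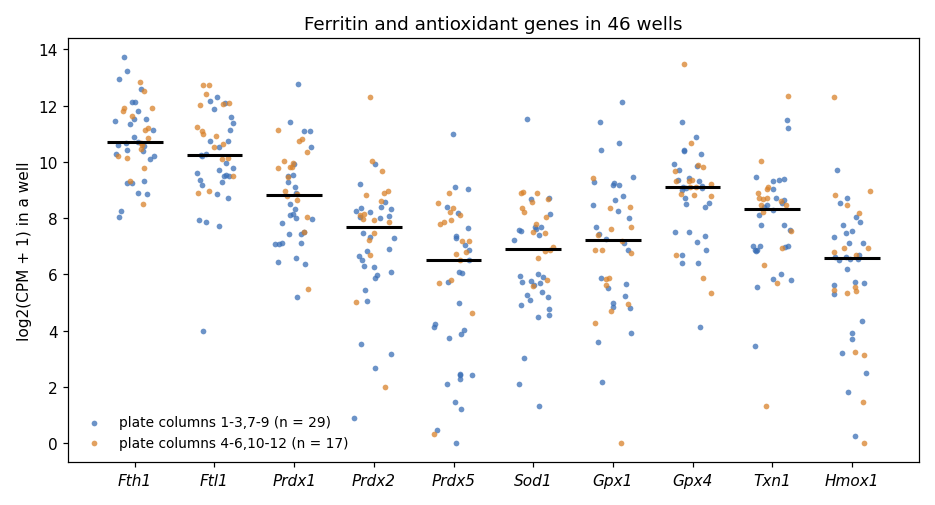
Level of each gene as log2(CPM + 1) (vertical axis) in each of 46 wells (points), with the median as a black bar and the color giving the plate columns of the well. *Fth1* and *Ftl1* sit highest, and *Prdx5*, *Gpx1* and *Hmox1* each reach 0 in 1 well.

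Low values were not limited to shallow wells. In the 25 wells with at least 1000000 gene counts, a member was under 0.1 of its own median in 25 of 250 combinations of gene and well, and 9 of the 10 members had such a well. *Hmox1* was that low in 7 of these wells, *Prdx2* in 5, *Prdx5* in 4 and *Sod1* in 3. *Fth1* was that low in none. The same counts were not made over the 2688 genes, so they do not set the members apart. The SD of log2(CPM + 1) ran from 1.33 for *Fth1* to 2.73 for *Prdx5*, against a median of 2.24 over those genes. H4, with 4033130 gene counts, had several members near 0 at once. It held *Prdx2* at 2.98 CPM, *Prdx5* at 0.248 CPM, *Txn1* at 1.49 CPM and *Hmox1* at 0, which allows up to 0.744 CPM. The other members were not low in the same well, from *Fth1* at 1406 CPM, 0.845 times its median, to *Prdx1* at 2252 CPM, 5.00 times its median. Pathway genes went both ways there, with *Nfe2l2* at its highest level, 619 CPM, and *Gstp1* at its lowest, 4.32 CPM. H4 also had the highest summed level of the 5 endothelial markers, 8855 CPM against a median of 0.691, and its hormone load was 1.88%. The part of these markers in the low redox values was not tested.

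Other wells with markers of another cell type held high values of members. E7, where *Sod1* was highest, had 2884 CPM of *Txn1*, the second highest level, and a summed level of 8 macrophage markers of 5225 CPM against a median of 36.5. Nearly all of that was *C1qc* at 5108 CPM, and *C1qa*, *C1qb*, *Tyrobp*, *Csf1r* and *Aif1* were at 0 there. E7 was also the shallowest well used, with 111195 gene counts. F11 had 146749 CPM of the 5 erythroid markers against a median of 59.3, and held *Fth1* at 5907 CPM with *Ftl1* at 722 CPM. D10, where *Hmox1* was highest, had the highest sum of the folliculostellate and stem markers, 559 CPM, but *S100b*, *Fxyd1*, *Sox2* and *Sox9* were at 0, so that all of it was *Vim*. The part of these markers in the members' levels was not tested. Without E7, F11 and H4, the median of *Fth1* was 1683 CPM and that of *Ftl1* 1212 CPM.

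Levels between genes were compared per kilobase of the transcript that matches RefSeq. The order of the medians was *Fth1* at 1791, *Ftl1* at 1264, *Gpx4* at 554, *Txn1* at 307, *Prdx1* at 196, *Sod1* at 187, *Gpx1* at 139, *Prdx2* at 127, *Prdx5* at 71.8 and *Hmox1* at 60.3 CPM per kilobase. The interquartile ranges of all neighbors in this order overlapped. Within wells, *Ftl1* was over *Gpx4* in 41 of 46, *Prdx2* over *Prdx5* in 37, *Gpx4* over *Txn1* in 36, *Txn1* over *Prdx1* in 31, *Sod1* over *Gpx1* in 31 and *Fth1* over *Ftl1* in 27. For the other 3 neighbors the order of the medians did not hold in most wells, with *Prdx1* over *Sod1* in 22, *Gpx1* over *Prdx2* in 19 and *Prdx5* over *Hmox1* in 19. The length used for *Prdx1*, 2294 bases, was the longest in the group, and its place depends on that choice.

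The balance of heavy and light chain reads varied widely from cell to cell. *Fth1* took a median of 52.7% of the ferritin reads of a well, but the share ran from 4.99% in A10 to 98.9% in E8. The exact Clopper-Pearson 95% intervals, which cover counting error only, were 3.72% to 6.68% and 98.4% to 99.4%. Wells had 163 to 62839 ferritin reads, and in 5 of 46 wells the interval held the median share. The differences between wells were therefore larger than counting error in the rest. Amplification adds error that was not measured here, and the libraries have no molecular identifiers.

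As a log2 ratio of reads, the balance had a median of 0.15, quartiles of −0.42 and 1.56, and an SD of 2.02. In 23 wells both chains were within 2-fold of each other, in 9 *Fth1* was over 4 times *Ftl1*, and in 4 *Ftl1* was over 4 times *Fth1*. The extreme wells arose in different ways. E8 had *Fth1* near its median, at 1366 CPM, and *Ftl1* at 14.7 CPM. A2 and G2 had *Ftl1* at 244 and 209 CPM but the highest *Fth1* levels, 13476 and 9626 CPM. A10 had *Ftl1* at 6792 CPM, its second highest level, and *Fth1* at 357 CPM. D10, which had the *Hmox1* peak, had both chains high, at 7259 CPM of *Fth1* and 5394 CPM of *Ftl1*, and a share of 57.4%.

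**Figure D2:**
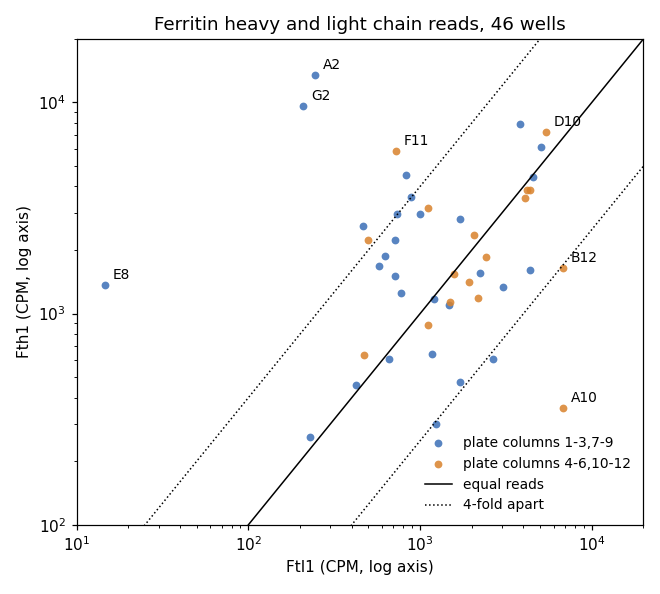
*Fth1* against *Ftl1* in CPM on log axes for 46 wells, with lines at equal reads and 4-fold apart. E8, A2 and G2 lie far above the upper line and A10 far below the lower line, while 23 wells are within 2-fold of equality.

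The chains did not move together. Their Spearman rho over the 46 wells was 0.11 and their Pearson r of log2(CPM + 1) was 0.08. The variance of the log2 difference, 4.05, was close to the sum of the variances of each chain, 1.77 for *Fth1* and 2.64 for *Ftl1*. In the 25 deeper wells rho was −0.04, and over the wells used without C10 or without C11 it was 0.08. It was 0.04 in the 29 wells of plate columns 1 to 3 and 7 to 9, and 0.20 in the 17 wells of columns 4 to 6 and 10 to 12.

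Which chain was higher per length depended on the length used. The median log2 ratio per kilobase was −1.22 with all annotated exons joined (3469 bases for *Fth1*, which includes retained introns, and 1340 for *Ftl1*). It was −0.47 with the longest coding transcript and 0.21 with the transcripts that match RefSeq (929 and 968 bases). The SD over wells, 2.02, does not depend on length.

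Near-identical copies make the level of *Ftl1* less certain than that of *Fth1*. The deposited table divides some reads between features, and 7 genes that match *Ftl1* in sequence held a median of 27.7% of the reads of *Ftl1* and these copies together, from 22.2% to 36.8% of a well. *Ftl1-ps1* alone had a median of 246 CPM and varied with *Ftl1* (rho 0.99). Reads that match both can be divided between them, so this rho is no separate sign of a shared pattern. The copy of *Fth1*, *Gm6977*, held 2.40% of reads. Copies held 10.8% for *Prdx1*, 6.40% for *Prdx2*, 5.39% for *Sod1* and 1.55% for *Txn1*. With the reads of the copies added, the median was 1824 CPM for *Ftl1* and 1701 CPM for *Fth1*, so that the order of the medians in reads turned. The SD of the log2 ratio was then 2.03.

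**Figure D3:**
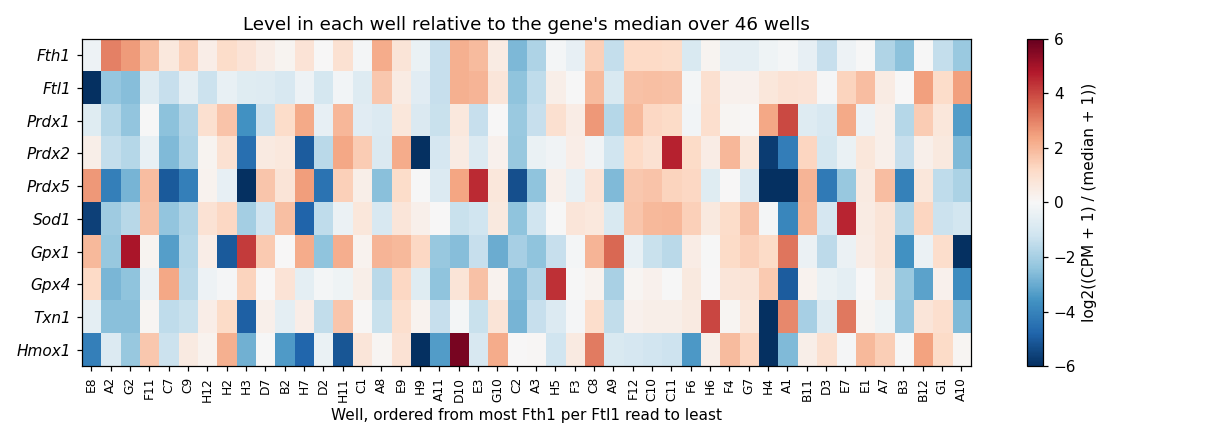
Level of each gene in each well relative to its median over 46 wells, as a log2 ratio in color (limits −6 and 6), with wells ordered from the most *Fth1* per *Ftl1* read at the left (E8) to the least at the right (A10). High and low squares of the antioxidant rows are scattered along this order, with lone dark squares such as *Hmox1* in D10 and *Gpx4* in H5.

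Co-variation among the members was weak for the ferritins and uneven for the rest. The median rho of the 45 pairs was 0.24, from −0.25 (*Gpx1* with *Hmox1*) to 0.73 (*Prdx1* with *Txn1*), and it was 0.20 over all pairs of the 2688 genes. Of the 45 pairs 4 reached 0.5, against 6.15% of all gene pairs. *Fth1* had a median rho of 0.11 with the other 9 members and reached at most 0.25, with *Prdx5*. *Ftl1* had a median of 0.30 and reached at most 0.46, with *Prdx1*. The wells share library preparation and differ in depth, and every rho here also carries that.

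Each pair at 0.5 or more included a peroxiredoxin, as do many of the possible pairs, since *Prdx1*, *Prdx2* and *Prdx5* are members. Over all gene pairs 6.15% reached 0.5, and no test was made that sets these pairs apart. *Prdx1* and *Txn1*, enzyme and electron donor, had a rho of 0.73 and a Pearson r of 0.57. *Prdx2* and *Sod1*, which removes and which makes peroxide, had a rho of 0.65. *Prdx2* reached 0.60 with *Prdx5* and 0.52 with *Txn1*. In the 25 deeper wells these values were 0.58, 0.49, 0.32 and 0.23. Scaled by median-of-ratios size factors in place of CPM, they were 0.31, 0.23, 0.28 and 0.02, and no pair reached 0.5. *Prdx1* with *Txn1* had a rho of 0.88 in the wells of plate columns 1 to 3 and 7 to 9 and 0.33 in the other columns. *Prdx2* also had the highest median rho of any member with the 2688 genes at large, 0.41, while *Fth1* had 0.09 and *Gpx1* had 0.01. With the other members the median of *Prdx2* was 0.40, no higher than with genes at large.

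Some values differed between all wells and the 25 deeper wells among them. *Prdx1* with *Sod1* had a rho of 0.47 over all 46 wells but 0.04 in the deeper wells. *Ftl1* with *Hmox1*, the light chain and the enzyme that frees heme iron, had 0.37 over all, 0.52 in the deeper wells, and 0.47 and 0.37 in the plate column sets. *Fth1* with *Hmox1* had −0.0025 and 0.21. *Gpx1* ran opposite to *Hmox1* and *Sod1* in the deeper wells, at −0.52 and −0.50, against −0.25 and −0.04 over all wells.

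**Figure D4:**
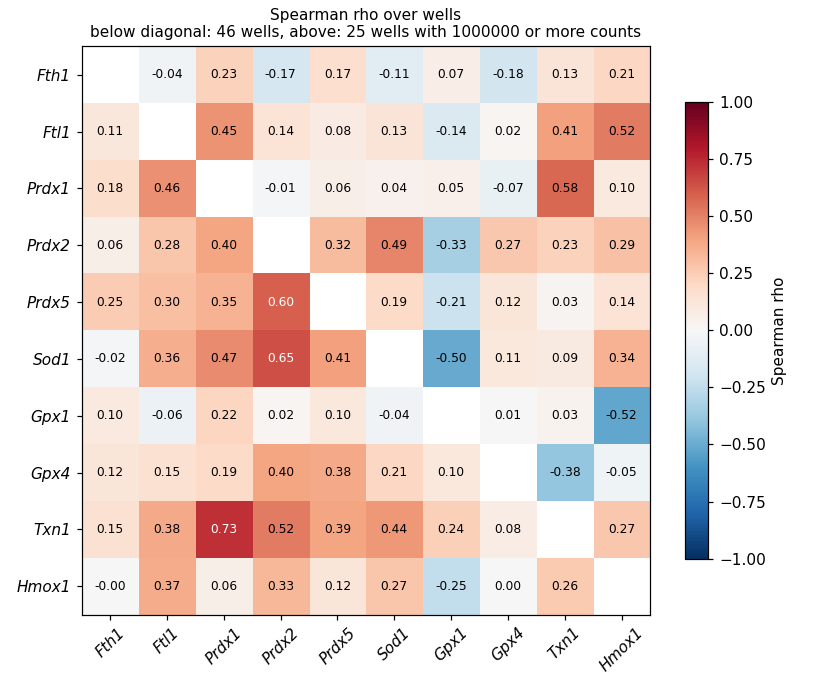
Spearman rho for each pair of members, below the diagonal over 46 wells and above it over the 25 wells with at least 1000000 gene counts, with color from −1 to 1. The *Prdx1* and *Txn1* square is the darkest below the diagonal at 0.73, and the *Fth1* column holds values from −0.02 to 0.25.

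*Prdx2* differed sharply between the paired wells. It was at 5057 CPM in C11 (2294 counts) and 384 CPM in C10 (173.5 counts), a 13.2-fold difference, whereas *Fth1* was at 3540 and 3846 CPM and *Ftl1* at 4110 and 4339 CPM. Without C11 the highest *Prdx2* level was 1036 CPM, in H11. The median of *Prdx2* was 178 CPM without C10 or without C11, against 205 CPM with both.

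The plate columns also differed in level. In the 29 wells of columns 1 to 3 and 7 to 9 the median of *Sod1* was 52.7 CPM and in the 17 wells of the other columns it was 221 CPM. *Prdx5* was 4.71-fold, *Prdx1* 3.23-fold, *Prdx2* 2.37-fold and *Ftl1* 2.32-fold higher in the latter. *Fth1* was 1.14-fold higher, and *Gpx1* was 1.76-fold higher in the former. The ranges of the 2 sets of wells overlapped for every member. The 10 wells left out for low gene counts were all in columns 4 to 6 and 10 to 12, so the filter on depth fell on 1 set only. The plate position is a fact of the well name and its part in these levels was not tested.

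Genes with a pattern like each chain were ranked by rho. At a rho of at least 0.5 with *Fth1* there was 1 of 2687 genes (0.0372%), its copy *Gm6977* at 0.94. This number was 20 in the 25 deeper wells and 405 in the 17 wells of plate columns 4 to 6 and 10 to 12. Next were *Rps27a* at 0.46, *Rps27a-ps2* at 0.46, *Gm8430* at 0.45 and *Rpl19-ps1* at 0.44, of which *Rps27a* encodes a ribosomal protein joined to ubiquitin. These names were not stable. Of the 5 genes closest to *Fth1*, only 1 stayed among its 5 closest in the deeper wells, in each plate column set and with median-of-ratios size factors. With partial rank correlation 3 stayed, and without B12 all 5. For *Ftl1* there were 11 of 2687 genes (0.409%), 55 in the 25 deeper wells and 150 in the 17 wells of plate columns 4 to 6 and 10 to 12. The same limit holds for these smaller sets of wells. Over all wells the 5 closest were its copies *Ftl1-ps1*, *Gm15590*, *Ftl2-ps*, *Ftl1-ps2* and *Gm12164*, at 0.97 to 0.99. Reads can be divided between a gene and its copies, so these values and that of *Gm6977* are not independent of the ferritin rows. The other 6 were *Anapc4* at 0.55, *Gm6560* at 0.54, *Erg28* at 0.53, *Nfkbia* at 0.52, *Dab2ip* at 0.51 and *Psmd7* at 0.50. These 6 are outside the rule for named genes and were named after their values were seen.

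None of the pathway genes with a median of at least 10 CPM reached a rho of 0.5 with either chain. Over all 2687 genes 0.0372% reached it with *Fth1* and 0.409% with *Ftl1*, so this does not set the pathway genes apart. Of all gene rows 5.71% had a median of at least 10 CPM, and of the 17 iron genes 3 did. These were *Pcbp1* at 73.4 CPM, *Iscu* at 62.9 CPM and *Pcbp2* at 32.3 CPM, an iron chaperone, a scaffold for iron-sulfur clusters and a second chaperone. *Tfrc*, the iron uptake receptor, had a median of 0 with counts in 19 wells, and *Slc40a1*, the exporter, had counts in 5. *Ncoa4*, which carries ferritin to lysosomes, had a median of 7.09 CPM. *Ftmt*, the mitochondrial ferritin, had no count in any well. The rho with *Fth1* ran from −0.15 to 0.10 over the 3 expressed genes.

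Of the thioredoxin and peroxiredoxin list 8 of 13 genes had a median of at least 10 CPM, against 5.71% of all gene rows. *Srxn1*, sulfiredoxin, which restores overoxidized peroxiredoxins, was at 198 CPM, *Txn2* at 197 CPM, *Prdx6* at 124 CPM and *Txnl1* at 97.2 CPM. *Srxn1* had a rho of 0.46 with *Ftl1* and 0.23 with *Fth1*, the highest of these 8 genes in each case. *Txnrd1*, the reductase of thioredoxin, was at 5.48 CPM. Of the glutathione list 6 of 17 genes passed the same level, led by *Gstp1* at 432 CPM, *Gstm5* at 96.1 CPM, *Gpx3* at 90.9 CPM and *G6pdx* at 26.0 CPM, while *Gclc* was at 0.525 CPM. *Gclm*, the other subunit of the enzyme that starts glutathione synthesis, had a rho of 0.42 with *Ftl1*.

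Of the list for superoxide, peroxide and NRF2, 6 of 12 genes passed. The metallothioneins *Mt1* and *Mt2* were at 619 and 125 CPM, the autophagy adaptor *Sqstm1* at 398 CPM, *Park7* at 177 CPM and *Nfe2l2*, which encodes NRF2, at 20.6 CPM. The median rho of the expressed genes with *Fth1* was 0.15 for this list, 0.15 for the glutathione list, 0.06 for the thioredoxin list, 0.08 for the iron list and 0.15 for 8 house-keeping genes. With *Ftl1* it was 0.11, 0.18, 0.12, 0.10 and 0.17. The median over all 2687 genes was 0.09 with *Fth1* and 0.18 with *Ftl1*.

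B12 was singled out after its values were seen, because it held the highest *Ftl1* level and many of the highest levels of the pathway genes. Of the 58 pathway genes with counts, 9 had their highest level in B12, or 15.5%, and 6.21% of the 2688 genes did. The 2 shares are of unlike sets, since the 58 needed only a count and the 2688 a median of at least 10 CPM. Those highest in B12 were *Gclm*, *Gsr*, *Slc39a14*, *Sqstm1*, *Srxn1*, *Steap3*, *Txnip*, *Txnl1* and *Txnrd1*. Of these, *Gsr*, *Slc39a14*, *Steap3*, *Txnip* and *Txnrd1* had medians under 10 CPM. *Srxn1* was at 6650 CPM against a median of 198, *Sqstm1* at 6884 against 398, *Txnrd1* at 668 against 5.48, and *Gclm* at 217 against 10.9. *Gclc* was the second highest there, at 145 CPM, and *Nqo1* and *Hmox1* were the third highest, at 126 and 502 CPM. *Srxn1*, *Txnrd1*, *Gclm*, *Gclc*, *Gsr*, *Nqo1*, *Sqstm1* and *Hmox1* are known targets of NRF2. Other genes of the lists that NRF2 is known to act on were not high there, with *G6pdx* at 1.56 CPM against a median of 26.0, *Gstm1* and *Gsta4* at 0, and *Slc7a11* at 13.4 CPM, 1.12 times its median. *Nfe2l2* itself was at 2.13 CPM, and *Mt1* was at 2.56 CPM against a median of 619. The part of NRF2 in the levels of this well was not tested.

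The members did not all follow in B12. *Ftl1* was 5.57 times and *Hmox1* 5.31 times its median, *Prdx1* at 1304 CPM was 2.90 times its median, and *Fth1*, at 1645 CPM, was 0.988 times its median. *Gpx4* was at 57.9 CPM, far under its median of 552. B12 had 7043040 gene counts, 13198 genes with a count, a hormone load of 1.29%, and no count of any of the 5 erythroid markers. Without B12, 9 genes had a rho of at least 0.5 with *Ftl1*, and its rho with *Fth1* was 0.12.

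The ferritins and *Prdx1* were lower in CPM where hormones took more of the counts. CPM is a share of a fixed total, so a larger hormone share leaves less for every other gene. The rho with hormone load was −0.31 for *Fth1*, −0.35 for *Ftl1* and −0.37 for *Prdx1*, and −0.42 for the ferritin total (Pearson r −0.45, and −0.37 without the 2 wells with the most distant hormone load). It was below 0 for 8 of 10 members, and 73.9% of all 2688 genes were below 0. The median was −0.12 over the members and −0.10 over all genes. In plate columns 1 to 3 and 7 to 9 the values were −0.38 for *Fth1*, −0.12 for *Ftl1* and −0.19 for *Prdx1*, and in the other columns −0.16, −0.38 and −0.40. In the 25 deeper wells that of *Fth1* was −0.50.

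With CPM calculated without the hormone reads, these values were nearer 0. The rho was −0.06 for *Fth1*, −0.12 for *Ftl1*, −0.18 for *Prdx1* and −0.07 for the ferritin total. Over the members the median was 0.09, with 3 below 0, and over all genes it was 0.07. The ratio of *Fth1* to *Ftl1*, which does not depend on the total, had a rho of 0.12 with hormone load over all wells, −0.17 in plate columns 1 to 3 and 7 to 9 and 0.37 in the other columns. In C2, where hormones took 81.0% of counts, *Fth1* was at its lowest, 260 CPM, and *Ftl1* was at 228 CPM.

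The ERCC share is high where a chamber yielded little cell cDNA. Its rho was −0.01 with *Fth1* and −0.05 with *Ftl1* over all wells. These values depended on wells and scaling, since in the 25 deeper wells they were 0.13 and −0.35 and with median-of-ratios size factors 0.30 and 0.35. For the 8 others it ran from −0.39 (*Gpx4*) to −0.21 (*Sod1*). All 10 were below 0, as were 88.2% of all genes, and the median over all genes was −0.25. *Txn1* had −0.38, *Hmox1* −0.38, *Prdx5* −0.39 and *Prdx2* −0.37. The Pearson values were weaker, at −0.12 for *Txn1*, −0.11 for *Hmox1* and −0.01 for *Prdx2*. The ERCC share itself had a rho of −0.76 with gene counts and 0.01 with hormone load, so it moves with depth.

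With gene counts held fixed by partial rank correlation, the rho with the ERCC share was 0.03 for *Fth1*, −0.12 for *Ftl1*, −0.32 for *Gpx4* and −0.37 for *Hmox1*, and the median over all genes was −0.21. In plate columns 4 to 6 and 10 to 12 the values were −0.12 for *Fth1*, 0.18 for *Ftl1*, −0.17 for *Gpx4* and −0.40 for *Hmox1*. In the remaining columns they were 0.04, −0.16, −0.58 and −0.34. A difference between the ferritins and the other members in this relation was not tested.

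**Figure D5:**
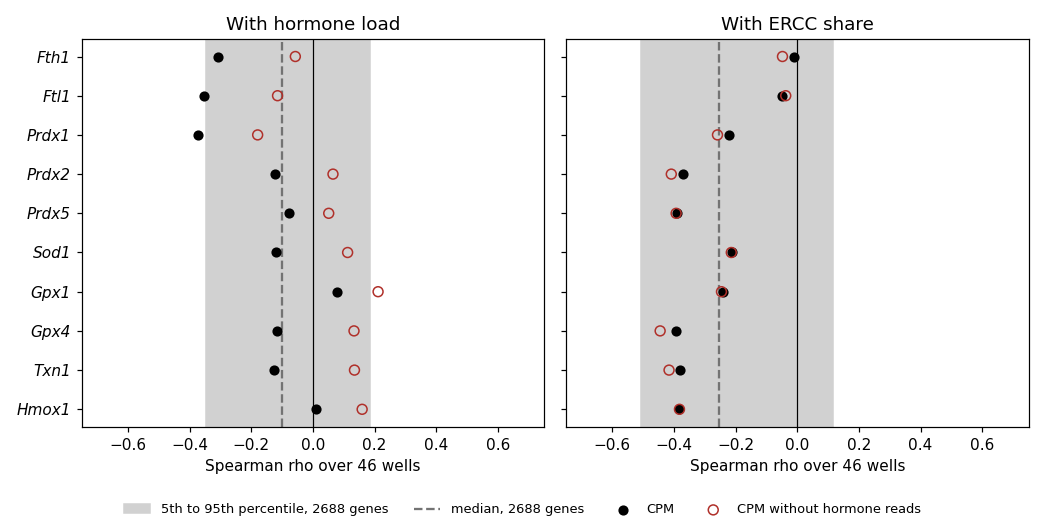
Spearman rho over 46 wells (horizontal axis) of each gene with hormone load (left) and with ERCC share (right), from CPM (filled) and from CPM without hormone reads (open), with the median and the 5th to 95th percentile of 2688 genes in gray. The gray is from CPM and compares with the filled points only. From CPM without hormone reads the median over all genes was 0.07 with hormone load and −0.26 with ERCC share. The open points all lie to the right of the filled ones for hormone load and close to them for ERCC share, where *Fth1* and *Ftl1* lie nearest 0 in these wells.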

How the data were processed

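SC libraries of 56 pituitary culture cells were measured with SMART-Seq v4 on the C1 IFC, without molecular identifiers. The estimated counts of every gene and well stand in 1 table from featureCounts, deposited by the authors without scaling to depth. In it, 33.5% of values above 0 were not whole (tolerance 1e-09). The submitters' notes list STAR 2.5.1b, featureCounts 1.5.0-p1 and mm10. The annotation release and the strand setting for these libraries are not given in the sources used here, so reads of overlapping genes (*Trmt112* with *Prdx5*, *Scaf4* with *Sod1*, *Junb* and *Rnaseh2a* with *Prdx2*) cannot be told apart with certainty.

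CPM was calculated over the 47069 gene rows, without the 92 ERCC rows, and logs are log2(CPM + 1). Of the gene rows 46488 matched a symbol. Wells with at least 100000 gene counts were kept (46), and 10 were left out. No doublet caller was run. Genes with a median of at least 10 CPM (2688) were the background, and a rho of at least 0.5 counted as like. Counts from 0 allow 3 counts. Intervals are exact Clopper-Pearson at 95% and cover counting error only.

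Positions, lengths and UTRs came from GENCODE M21 (GRCm38) and promoters from RefSeq (GRCm38.p6). Copies were found with blastn 2.17.0. The named genes were the members, the 5 genes most like each ferritin, the hormones, annotated copies, and from each pathway list the first gene and the 4 with the highest median. Members and lists were chosen with earlier results of these data known, and single wells, *Alas2*, *Ppp1r1b*, *Ncoa4*, *Ftmt*, *Gclm*, *Gstm1*, *Gsta4*, *Slc7a11* and the genes high in B12 were named after values were seen. Correlation code was tested on simulated data. Python 3.11.15, numpy 2.4.6, scipy 1.17.1, pandas 2.3.3 and matplotlib 3.10.9 were used.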

Additional observations from a re-analysis of the deposited data

Results flagged for a closer look

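The 10 wells under 100000 gene counts were outside the comparisons, but ferritin was present there. *Fth1* had more than 3 counts in 8 of these wells and *Ftl1* in 8, and both had a count in all 10. Their median levels there were 3092 and 4730 CPM. The 7 copies of *Ftl1*, whose reads are not counted in the levels given for *Ftl1*, held a median of 27.7% of the reads of *Ftl1* and its copies.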

How the results depend on the processing

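Of 560 values recomputed under 22 alternatives, 506 moved by less than 1 SD or, for counts, by less than 1.5 times, and 54 by more. That SD is over wells for levels of single members and for the balance, over member pairs for co-variation, and over members for the rest. Medians pass an SD over wells easily. Of 130 median levels of single members 12 moved by over 1.5 times, 8 of them in a plate column set and 3 without hormone reads, up to 2.94-fold for *Prdx5*, at 30.8 CPM in columns 1 to 3 and 7 to 9. The median log2 ratio of *Fth1* to *Ftl1* per kilobase ran from −1.63 to 0.21 and turned sign only with the RefSeq-matched length. The median rho of member pairs was −0.0348 with median-of-ratios size factors over 1231 genes, against 0.24. The number of pairs at 0.5 or more, 4, was then 0, and was 2 in the deeper wells, 7 in plate columns 1 to 3 and 7 to 9, and 2 in columns 4 to 6 and 10 to 12. The median rho with hormone load was 0.0886 without hormone reads, where 3 members were below 0, and the number below 0 was 4 with size factors and 5 in columns 1 to 3 and 7 to 9. The median rho with ERCC share, −0.31, was −0.16 in columns 4 to 6 and 10 to 12, −0.0682 with size factors, where 6 members were below 0, and −0.11 as Pearson r. The number of genes at 0.5 or more with *Fth1*, 1, was 20 in the deeper wells, 405 in columns 4 to 6 and 10 to 12, 2 with size factors, 2 with thinned wells, 3 with all genes of a median above 0, and 4 without E7, F11 and H4. That with *Ftl1*, 11, was 22 in all wells, 55 in the deeper wells, 27 and 150 in the plate column sets, 5 without hormone reads, 7 with size factors, 17 with thinned wells, 17 as partial rank correlation, 31 with all genes of a median above 0, and 37 without E7, F11 and H4. For these gene numbers, the genes compared were chosen anew in each set of wells, and a rho of 0.5 is reached more easily with fewer wells. The cause of these changes was not tested. Copies by sequence, the RefSeq length and leaving out E7, F11, H4 or B12 were chosen after seeing the data. No paired analysis was possible because all wells form 1 group.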

Other observations

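A10 held 49895 CPM of *Blvrb* (6361 counts), the gene of biliverdin reductase B, against a median of 7.69 CPM and a second highest level of 651 CPM in E9. The same well had the second highest *Ftl1* level and the lowest share of *Fth1* among ferritin reads. *Hmox1* was at 102 CPM there, close to its median of 94.6 CPM. *Hmox2* and *Blvra* were at 0, which allows up to 23.5 CPM in this well, above the median of each. A10 had 127487 gene counts, and this gene was chosen after its values were seen.

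D10, the well with the *Hmox1* peak, held the highest level of 6 other pathway genes, *Aco1*, *Gss*, *Mafg*, *Mgst3*, *Mt2* and *Nqo1*. This was 10.3% of the 58 pathway genes with counts, and 4.39% of the 2688 genes were highest there. The 58 include genes with a median under 10 CPM, so these shares are of unlike sets. *Mt2* was at 11062 CPM in D10 against a median of 125. C7 held the highest level of 5 pathway genes, *Gsta4*, *Gstm1*, *Iscu*, *Park7* and *Prdx6*, or 8.62% of the 58, and of 5.25% of the 2688 genes. *Gstm1*, a glutathione transferase, was at 2577 CPM in C7 against a median of 8.09.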
